A study of Mus musculus with 21 samples.

Results

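The cytosolic ribosomal protein genes encode the proteins that, with the ribosomal RNAs, make up the large and small subunits of the ribosome outside mitochondria. Their rows were chosen by symbol alone: Rpl or Rps with a number, plus Rpsa, Rplp0, Rplp1 and Rplp2. That gave 85 of the 24498 genes of the table, 52 for the large subunit and 33 for the small one. RNA from hippocampus of male mice aged 8 weeks was sequenced in 21 libraries, and this account uses the 15 ethanol libraries with over 1000000 gene reads. All of these animals received ethanol by intraperitoneal injection, at 2 g/kg as a 20% solution in saline. The knockdown arm received an AAV vector with a U6-driven short hairpin RNA against Acss2 and a CMV-driven EGFP, by stereotaxic injection into dorsal hippocampus according to the treatment protocol. The design text can also be read as a systemic route, no vector is described for the control arm, and the promoters do not limit expression to one cell type. Dorsal hippocampus gave 3 control and 4 knockdown libraries, ventral hippocampus 4 control and 3 knockdown libraries, and whole hippocampus 1 knockdown library. Since no label states that the replicates are different animals, every p-value here reflects library-to-library spread, which may be technical.

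Acss2, the cytosolic and nuclear acetyl-CoA synthetase targeted by the hairpin, checked the labels first. Its level was 53.1, 58.7 and 52.9 CPM (counts scaled to 1000000 reads per library, with TMM scaling factors) in dorsal control and 44.3, 40.9, 18.02 and 19.3 in dorsal knockdown. Ventral control gave 50.3, 54.2, 47.5 and 48.2 CPM, and ventral knockdown 28.9, 63.6 and 36.7. Here and below, values follow the replicate numbers, which run from 2 to 4 in ventral knockdown. The library labelled ventral knockdown 3 was thus above every ventral control, and the library labelled total knockdown 1, at 58.1 CPM, was within the dorsal control range, so neither showed a lower Acss2. Gene reads ran from 2819837 to 13240179 per library. Neuronal markers summed to 5004 to 9704 CPM and none of the 7 was at 0. Untreated libraries were left out. In them 98.6% to 99.0% of reads lay in no gene, out of gene reads, reads in no gene and ambiguous reads together. Of their gene reads other than Rn45s, 0.228% to 0.399% lay in the ribosomal protein genes. Dorsal knockdown 5 (47 such reads) and ventral knockdown 1 (97 such reads) were left out as well.

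Ribosomal protein mRNAs are kept in step with one another, since most of the proteins are present in equal number in every ribosome. Most vertebrate members carry a terminal oligopyrimidine tract, a run of C and T that opens the transcript and puts its translation under control of mTOR. In neurons they make up the translation machinery of the cell body and are also found in dendrites and axons. Rn45s is the precursor of the large ribosomal RNAs and is made by RNA polymerase I, whereas the ribosomal protein genes are read by RNA polymerase II. The labels do not describe how ribosomal RNA was removed before sequencing, and reads counted to Rn45s were not split into precursor and mature ribosomal RNA.

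The sequence at the start sites was not used by the symbol rule. RefSeq promoters of build GRCm38.p6 were found for 64 of the 85 genes, with 76 promoters in all because some genes have several. Below are windows of 30 bases, from 20 before the annotated start to 10 from it on, written 5′ to 3′ with the longest run of C or T in capitals. Rpl7a, Rpl35 and Rpl4 are shown for their long runs (that of Rpl4 ends before the annotated start), Rpl38 and Rps6 as members whose level fell steeply with the Rn45s share of the library, and Rplp2 as the one with the flattest slope. Rpl39 and Rps7 are shown because their slopes were also steep, and in them too the longest run does not sit at the annotated start.
Rpl7a, chr2:26910787-26910816, plus strand: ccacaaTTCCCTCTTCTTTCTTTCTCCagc
Rpl35, chr2:39005122-39005151, minus strand: gaagtcggccccgCCCTTTCCTCTTTCTCT
Rpl4, chr9:64173367-64173396, plus strand: agTCTTTCCTTTTCCTgtgggagcagccgg
Rpl38, chr11:114668560-114668589, plus strand: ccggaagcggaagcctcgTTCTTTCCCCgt
Rplp2, chr7:141447631-141447660, plus strand: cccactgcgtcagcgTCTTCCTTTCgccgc
Rps6, chr4:86857358-86857387, minus strand: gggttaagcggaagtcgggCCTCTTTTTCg
Rpl39, chrX:37085213-37085242, minus strand: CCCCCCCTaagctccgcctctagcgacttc
Rps7, chr12:28635944-28635973, minus strand: gaagagCTTCCggtttccacccacctactt
A run of at least 8 pyrimidines lay in the window of 30 of the 76 promoters (39.5%), against 4128 of 32851 promoters of all genes (12.6%). The annotated first base was C or T in 43.4% of the ribosomal protein promoters and 30.0% of all. In the 250 bases before the start, on either strand, CCGGAAG was found in 26.3% against 6.91%, GGGCGG in 47.4% against 32.7% and TATAAA in 6.58% against 12.4%. Start sites in RefSeq can lie some bases from the start used in hippocampus, and a match is a description of letters only.

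Of the 85 genes, 78 passed the low-count filter and were tested, 45 of the large and 33 of the small subunit. The 7 others all belong to the large subunit list. Rpl26 and Rpl10l, a retrogene relative of Rpl10 known from testis, had 0 reads in all 15 libraries, and Rpl39l, the relative of Rpl39 known from testis, had 2. Rpl3l, the form of Rpl3 known from striated muscle, had 64 reads, Rpl30 had 44, Rpl34 had 41 and Rpl32l, a processed pseudogene in GENCODE M21, had 41. Of the windows of 50 bases along the Rpl26 transcript, 71.3% also occur in another gene or pseudogene, and for Rps27, with 166 reads, the share was 98.6%. For Rpl30 and Rpl34 it was 47.8% and 50.6%. Reads in such stretches can be dropped or assigned to a copy, so levels of these genes are uncertain. Yet Rpl9 and Rps12, with shares of 93.3% and 90.1%, stood at 293 and 393 CPM per kilobase. Across all 85 genes the level per kilobase was nearly unrelated to that share (Spearman's rho 0.12 across genes, which are not independent). Why Rpl26, Rpl30, Rpl34 and Rps27 had few reads was not tested.

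Levels per kilobase of transcript differed widely between members. Rplp1, an acidic protein of the stalk that recruits elongation factors, was the highest with a mean of 933 CPM per kilobase over 14 libraries. It was followed by Rps15, whose tail reaches towards the decoding site, with 625, Rps21 with 519, Rps29 with 509 and Rpl41, which encodes the shortest ribosomal protein, with 396. Among genes with reads in the 15 libraries, the lowest were Rpl39l (0.02), Rpl3l (0.359), Rpl30 (0.606), Rpl34 (0.699) and Rpl32l (0.759 CPM per kilobase). Rps15a and Rps20 came out at 22.4 and 31.2 CPM per kilobase with annotated transcripts of 5130 and 3706 bases, so their level depends on which transcript is counted. Of the paralogue pairs, Rpl22 stood at 208 against 42.99 CPM per kilobase for Rpl22l1, and Rpl7 at 154 against 13.8 for Rpl7l1. Rps4x, the X-linked small subunit gene, stood at 153 against 30.3 for Rps4l, a transcribed processed pseudogene in GENCODE. Rps27l at 20.9 was above Rps27 at 4.30, a pair in which the counts of Rps27 are uncertain for the reason given above.

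Together the genes took between 0.733% and 2.02% of the gene reads other than Rn45s. Dorsal control libraries gave 0.999%, 1.10% and 0.954%, and dorsal knockdown libraries 0.733%, 2.02%, 1.24% and 1.01%. Ventral control libraries gave 1.61%, 1.29%, 0.887% and 0.943%, ventral knockdown libraries 0.943%, 1.84% and 0.937%, and the library labelled total knockdown 1 0.900%. The highest values were those of dorsal knockdown 2, the library labelled ventral knockdown 3 and ventral control 1, and knockdown and control ranges overlapped in both regions. Group means were 1.02% ± 0.0728 (SD, n = 3) in dorsal control, 1.25% ± 0.552 (n = 4) in dorsal knockdown, 1.18% ± 0.336 (n = 4) in ventral control and 1.24% ± 0.519 (n = 3) in ventral knockdown. Counting error was far smaller, with a Clopper-Pearson 95% interval of 0.727% to 0.740% for the lowest library and 2.01% to 2.03% for the highest. In bulk RNA, fewer cells of a type and less RNA per cell cannot be told apart. Large subunit genes took 0.452% to 1.21% and small subunit genes 0.281% to 0.811%. Their ratio stayed between 1.45 and 1.68 in all 15 libraries, and its group means were 1.54 ± 0.0799, 1.51 ± 0.0677, 1.52 ± 0.0368 and 1.55 ± 0.112 in the order above.

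**Figure D1:**
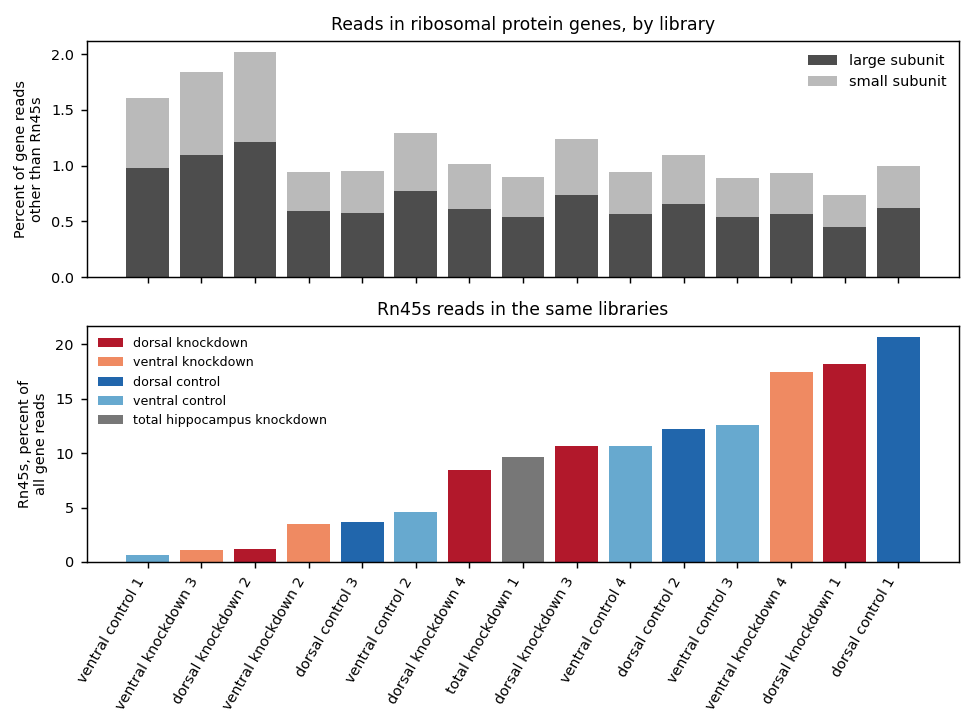
Upper bars give, for each of 15 ethanol libraries, the percent of gene reads other than Rn45s that fell in large (dark) and small (light) subunit genes; lower bars give the Rn45s percent of all gene reads, coloured by group, with libraries ordered by that percent. The 3 libraries with the smallest Rn45s share carry the 3 tallest upper bars, 1.61% to 2.02%, and the other 12 lie between 0.733% and 1.29%.

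The same 3 libraries had the smallest Rn45s shares, 0.625% of gene reads in ventral control 1, 1.08% in the library labelled ventral knockdown 3 and 1.17% in dorsal knockdown 2. The other 12 held 3.49% to 20.7% Rn45s and 0.733% to 1.29% ribosomal protein reads. Within those 12 the 2 shares were only weakly related (Pearson's r -0.36, Spearman's rho -0.34, given as a description), and r was -0.21 over 10 libraries without dorsal control 1 and dorsal knockdown 1. Both shares come from the same libraries, and no value pooled over all 15 is given because the 3 stand apart. The 3 libraries also differed from the 12 in other ways. Astrocyte markers summed to 1956 to 2257 CPM in the 3 against 2883 to 7148 in the 12, and 4 nuclear long noncoding RNAs to 5739 to 8580 against 9433 to 16736. Neuronal markers overlapped, at 6206 to 9704 against 5004 to 8800 CPM, as did those of microglia (192 to 402 against 204 to 735), oligodendrocytes (2808 to 4885 against 1971 to 10996), endothelium (118 to 182 against 160.0 to 271), meninges (35.8 to 352 against 39.2 to 525) and choroid plexus (33.6 to 214 against 39.6 to 15297). No marker of these lists was at 0 in all 15 libraries. Reads in no gene, on the base given for the untreated libraries, made up 23.1% in dorsal knockdown 2 and 18.3% in the library labelled ventral knockdown 3. They made up 31.4% in ventral control 1, against 24.7% to 42.3% in the 12. The part of these differences in the ribosomal protein levels was not tested.

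To measure the relation within groups, the log2 Rn45s share was added to the 4 group means as 1 common slope, in a fit across all genes with Rn45s itself left out. A common slope does not show the relation in each group. In dorsal control, replicate 3 had both the smallest Rn45s share (3.66%) and the lowest ribosomal protein share (0.954%). In each other group the library of smallest Rn45s share had the highest ribosomal protein share. All 78 tested ribosomal protein genes had a negative slope, with a median of -0.19 on the log2 scale per doubling of the Rn45s share, against 0.01 over 14567 genes. edgeR's quasi-likelihood test called 51 of the 78 lower at a Benjamini-Hochberg adjusted p under 0.05 and none higher, 28 of 45 large and 23 of 33 small subunit genes. Over all genes, 29.6% were called, 13.9% higher and 15.7% lower. The median slope was -0.19 in each subunit. This relation rests on the 3 libraries with the smallest Rn45s share. Without them 0 of the 78 genes and 2 of 14734 genes were called by edgeR (6 of the 78 and 986 of all had an unadjusted p under 0.05), the median slope was -0.03, and 28 of the 78 slopes were positive. DESeq2 called 53 of the 78 in all 14 libraries, and 4929 of 14567 genes. Single libraries mattered as well. Without dorsal knockdown 2, 29 of the 78 and 2379 of 14506 genes were called by edgeR. The counts were 39 and 1958 of 14543 without ventral control 1. Without the library labelled ventral knockdown 3 they were 38 and 4332 of 14845, and 7 of the 78 slopes were positive.

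**Figure D2:**
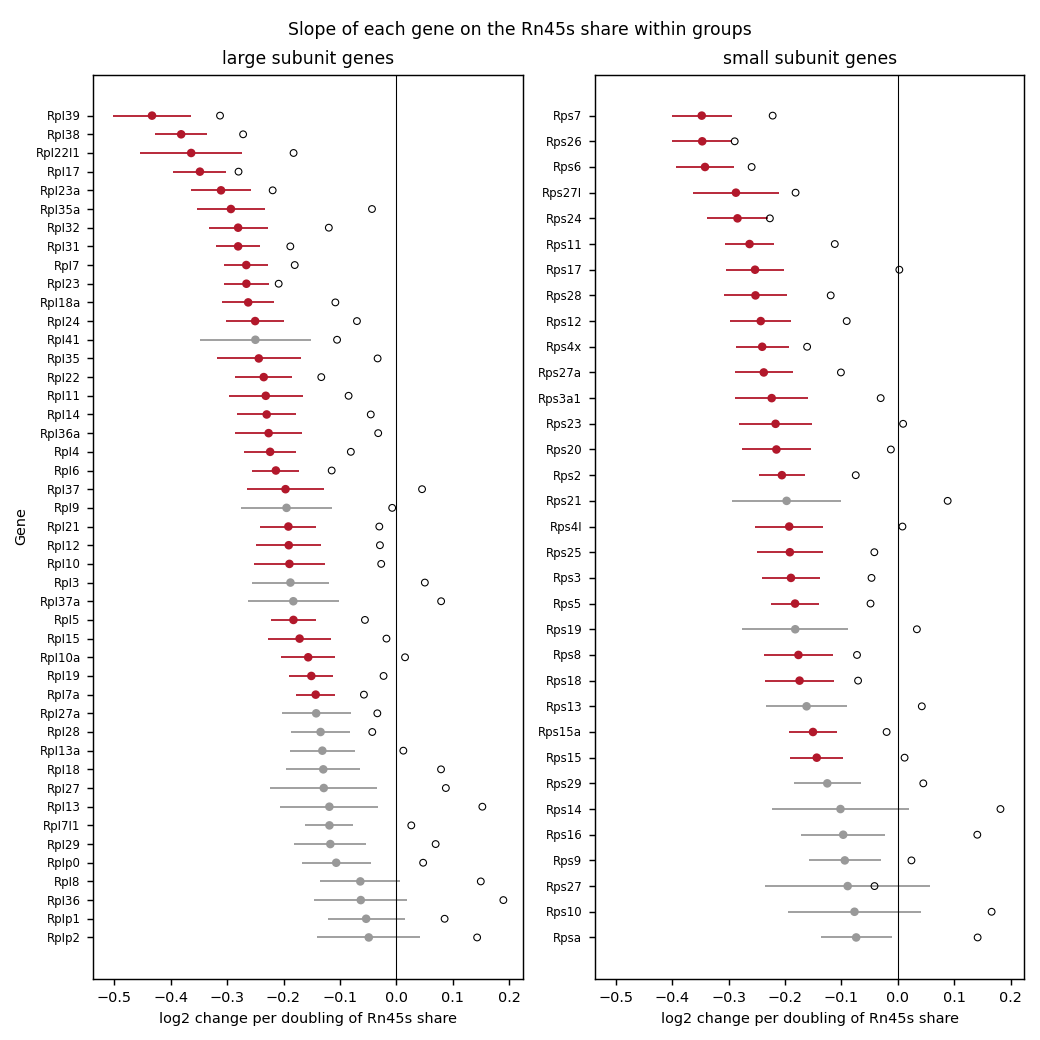
Each row is 1 gene, with its log2 change per doubling of the Rn45s share (filled point) and 1 SE on either side (line) from 14 libraries, red where the adjusted p is under 0.05; open circles give the slope from 11 libraries, without the 3 of smallest Rn45s share. All 78 filled points lie left of 0, from -0.43 for Rpl39 to -0.05 for Rplp2, and 28 open circles lie right of it.

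The steepest slopes belonged to Rpl39, Rpl38, Rpl22l1, Rpl17 and Rps7. Rpl39, a short protein that lines the peptide exit tunnel (chrX:37082520-37085402 on the minus strand, GRCm38 in GENCODE M21), was at 37.9, 45.3 and 35.4 CPM in dorsal control, 20.5, 112, 41.1 and 34.3 in dorsal knockdown, 152, 89.03, 25.2 and 42.7 in ventral control, 47.4, 86.8 and 32.01 in ventral knockdown. Ventral control 1 and dorsal knockdown 2 were the highest, and dorsal knockdown 1 and ventral control 3 the lowest of the 14. Its slope was -0.43 (SE 0.07, edgeR adjusted p = 0.000989), and -0.31 without the 3 libraries. Rpl38, known for its part in the translation of Hox mRNAs in the embryo (chr11:114668524-114672331 on the plus strand), was at 51.7, 94.1 and 80.4 CPM in dorsal control, 63.1, 181, 89.99 and 76.3 in dorsal knockdown, 303, 102, 64.01 and 74.3 in ventral control, 125, 169.7 and 77.7 in ventral knockdown. Ventral control 1 was higher than all others, and dorsal control 1 was the lowest. Its slope was -0.38 (SE 0.05, edgeR adjusted p = 0.000443), and -0.27 without the 3 libraries, the direction kept but not called. Rpl22l1, the paralogue of Rpl22, had a slope of -0.36 (SE 0.09, edgeR adjusted p = 0.00979), and levels from 9.25 CPM in dorsal knockdown 1 to 54.5 CPM in the library labelled ventral knockdown 3. Rpl17, another protein at the exit tunnel, had a slope of -0.35 (SE 0.05, edgeR adjusted p = 0.000537), and Rps7, a small subunit assembly protein, one of -0.35 (SE 0.05, edgeR adjusted p = 0.000793).

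Rps6, the small subunit protein that S6 kinase phosphorylates (chr4:86854660-86857412 on the minus strand), was at 61.1, 75.1 and 66.8 CPM in dorsal control, 62.2, 156, 82.1 and 75.7 in dorsal knockdown, 287, 86.98, 68.1 and 82.2 in ventral control, 149, 129 and 62.8 in ventral knockdown. Ventral control 1 was higher than every other library, and dorsal control 1 was the lowest. The slope of Rps6 was -0.34 (SE 0.05, edgeR adjusted p = 0.000773). The 5 called genes with the least steep slopes were Rpl7a (-0.14), Rps15 (-0.14), Rps15a (-0.15), Rpl19 (-0.15) and Rpl10a, a protein of the mobile stalk at the tRNA exit (-0.16). Slopes of Rps15 and Rpl10a were positive, 0.01 and 0.02, without the 3 libraries. Just inside the threshold stood Rpl37 (adjusted p = 0.0464 by edgeR) and just outside it Rpl7l1 (adjusted p = 0.0501) and Rpl3, a protein near the peptidyl transferase centre (adjusted p = 0.0550).

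The 3 proteins of the acidic stalk were not called. Rplp1 (chr9:61913284-61914542 on the minus strand) was at 586, 449 and 367 CPM in dorsal control, 406, 602, 641 and 484 in dorsal knockdown, 318, 409, 392 and 362 in ventral control, 333, 804 and 364 in ventral knockdown. The library labelled ventral knockdown 3 was the highest, ventral control 1 the lowest, and dorsal knockdown 3 stood above dorsal knockdown 2. Its slope was -0.05 (SE 0.07, edgeR adjusted p = 0.590). Rplp2, its partner (chr7:141447370-141451585 on the plus strand), was at 117, 120.0 and 101 CPM in dorsal control, 85.6, 166, 177 and 130.2 in dorsal knockdown, 62.6, 105, 100.4 and 98.1 in ventral control, 50.03, 213 and 108 in ventral knockdown. Ventral knockdown 2 and ventral control 1 were the lowest of 14, although ventral control 1 had the smallest Rn45s share. The slope of Rplp2 was -0.05 (SE 0.09, edgeR adjusted p = 0.723), and that of Rplp0, the base of the stalk, -0.11 (SE 0.06, edgeR adjusted p = 0.205). Rpsa, the small subunit protein also known as the laminin receptor precursor, had -0.07 (SE 0.06, edgeR adjusted p = 0.401), and Rps14 had -0.10 (SE 0.12, edgeR adjusted p = 0.565).

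Ventral control 1 did not hold all genes high. It held 502 CPM of Rpl41, 303 of Rpl38 and 287 of Rps6, each the highest of the 15 libraries, but 108 CPM of Rps14, 45.8 of Rpl36 and 23.5 of Rps10, each the second lowest. Ventral knockdown 2, with 3.49% Rn45s, showed a similar split on a smaller scale. Rpl41 stood at 414 CPM there, second to ventral control 1, and Rpl17 at 317, while Rps14 (59.8), Rpl36 (31.6) and Rps10 (18.04 CPM) were the lowest of all. Dorsal knockdown 2 and the library labelled ventral knockdown 3 were high for Rps14, with 353 and 433 CPM, and held 406 and 299 of Rpl17. Their Rpl41, at 246 and 231 CPM, lay below that of dorsal control 1 (306), ventral knockdown 2 and ventral control 1. These genes were picked after their values were seen. Over the 78 genes, the median correlation of a gene's log2 level with the mean of the others across 14 libraries was 0.84, ranging from 0.32 to 0.98. The median SD of the log2 level was 0.49, and 0.25 around the library median. These are descriptions, since the 14 points share their libraries and scaling. The 14 include the 3 libraries of smallest Rn45s share, and no such value is given without them. None is given for other genes either, so the correlation cannot be read as particular to ribosomal protein genes.

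**Figure D3:**
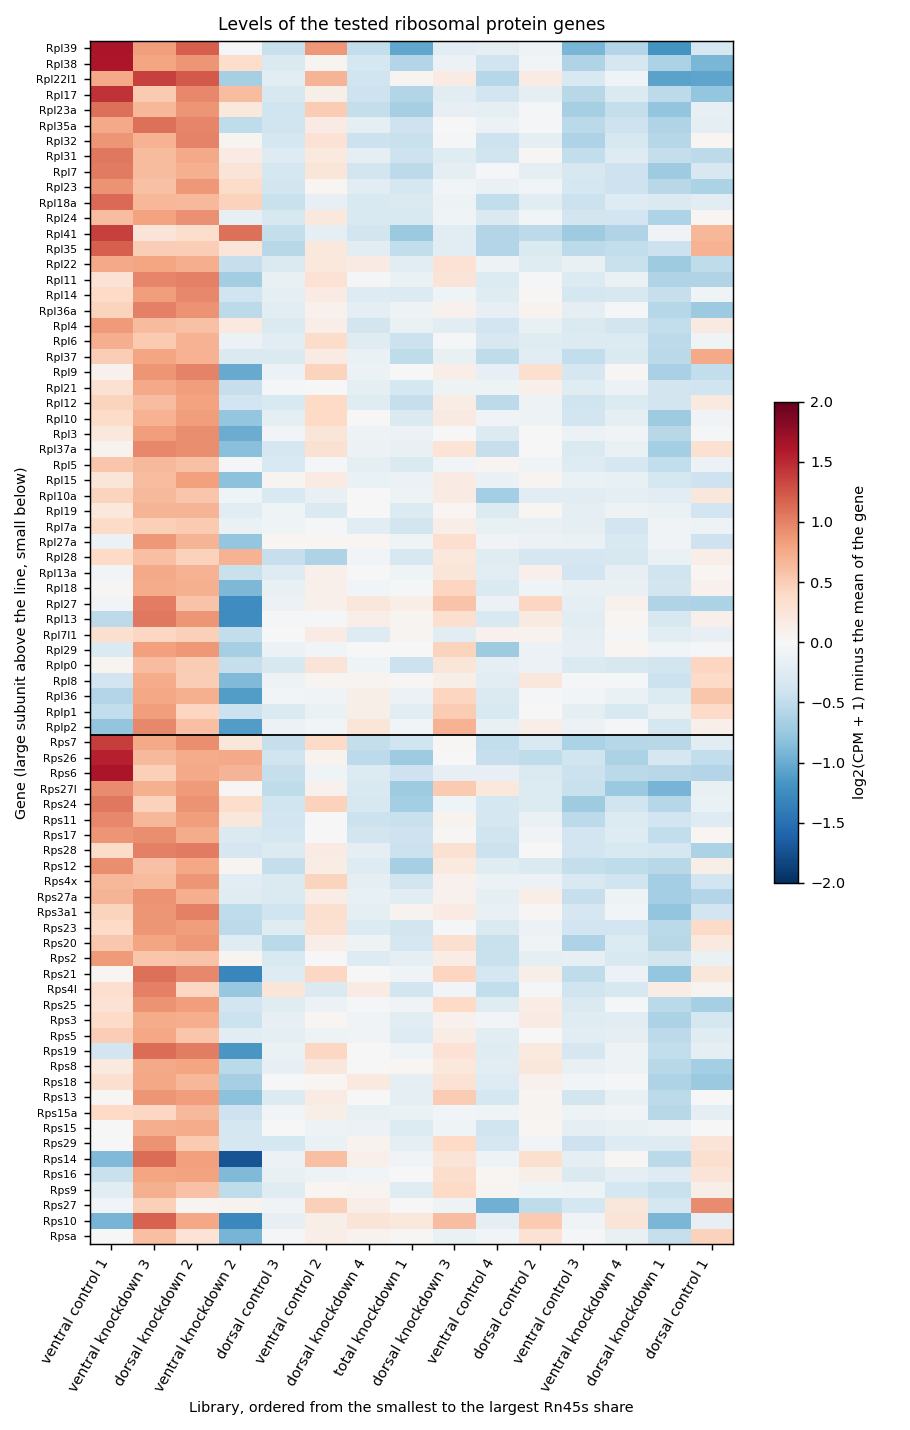
Colour gives the log2(CPM + 1) of each tested gene minus its mean over 14 libraries; columns are 15 libraries from the smallest to the largest Rn45s share, rows are large then small subunit genes ordered by slope. The 3 columns at the left are mostly red, ventral control 1 is red at the top of each block and blue at its foot, and ventral knockdown 2, the next column, is blue for Rps14, Rps10 and Rpl36.

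The genes with structural or medical roles followed the same range. Rpl5 and Rpl11, which carry the smallest ribosomal RNA into the subunit and bind Mdm2 when assembly fails, had slopes of -0.18 (SE 0.04, edgeR adjusted p = 0.00504) and -0.23 (SE 0.07, edgeR adjusted p = 0.0177). Rpl10, a late-joining protein near the tRNA sites, had -0.19 and Rpl23 -0.27, both called. Rpl13a, known for silencing of inflammatory mRNAs after interferon, had -0.13 and Rpl41 -0.25, neither called (edgeR adjusted p = 0.0998 and 0.0711). In the small subunit, Rps2 (-0.21), Rps3 at the mRNA entry (-0.19), Rps4x (-0.24), Rps27a, made as a fusion with ubiquitin (-0.24), Rps27l (-0.29) and Rps28 (-0.25) were called. Rps19, often mutated in Diamond-Blackfan anaemia (-0.18), Rps21 (-0.20), Rps29 (-0.13) and Rps27 (-0.09) were not. Slopes were nearly unrelated to transcript length within the 78 genes (Spearman's rho 0.16) and to the share of repeated 50-base windows (-0.01). Genes under 600 bases had a median of -0.23 and 14 of 23 called, those of 600 to 900 bases -0.19 and 19 of 28, and longer ones -0.19 and 18 of 27.

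The fitted slopes of other lists ran from negative to positive medians. Among other parts of the cytosolic ribosome, Rpl36al was called lower (-0.19) and Fau was not (-0.16). Of 17 translation factors, 10 were called lower and 1 higher, with a median of -0.13, and Eif3e, an initiation factor subunit, stood at -0.35. In 77 mitochondrial ribosomal proteins 54 were called lower (median -0.18), with Mrps33 at -0.36 and Mrpl41 at -0.35. Oxidative phosphorylation genes gave 49 of 72 lower (median -0.18), with Uqcrb, of complex III, at -0.38. Ribosome assembly and RNA polymerase I genes gave 10 lower and 1 higher of 32, with a median of -0.03, and Nop10 at -0.29. Among 12 genes of the mTOR and S6 kinase pathway, 6 were called higher and 1 lower, Mtor at 0.20, Rptor at 0.19 and Rheb, the activator of mTOR, at -0.28. These lists were written with earlier results of the data known, and no list was compared with others by a test.

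Slopes also followed transcript length over all genes, and the tested ribosomal protein genes are short, with a median of 778 bases against 2885. Of 957 other tested genes under 1000 bases, 34.7% were called lower, with a median slope of -0.13. The share fell to 26.5% in 3047 genes of 1000 to 2000 bases (median -0.07), 14.5% in 5771 of 2000 to 4000 bases (0.01) and 4.07% in 4271 of 4000 bases and over (0.10). In the ribosomal protein genes it was 65.4%, with a median slope of -0.19. Shares called also depend on read counts, and these sets were not matched for level or, within a bin, for length. Mitochondrial ribosomal protein genes had a median length of 1223 bases, and oxidative phosphorylation genes one of 709 bases. The mTOR and S6 kinase genes were long, with a median of 5657.5 bases. The share called higher ran the other way with length, from 3.66% of the other genes under 1000 bases to 32.1% of those of 4000 bases and over. The positive slopes of the mTOR and S6 kinase list were not separated from this trend.

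**Figure D4:**
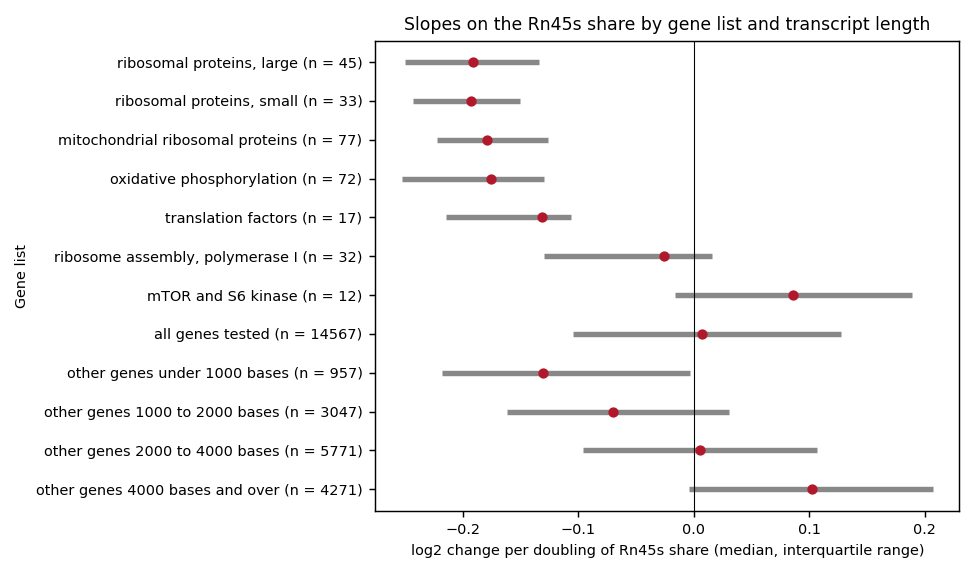
Points give the median log2 change per doubling of the Rn45s share for each gene list and lines the interquartile range, with the number of tested genes in brackets. Large and small subunit genes sit at -0.19, mitochondrial ribosomal proteins and oxidative phosphorylation at -0.18, and the medians of other genes go from -0.13 under 1000 bases to 0.10 at 4000 bases and over.

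In dorsal hippocampus, no ribosomal protein gene was called between knockdown and control. edgeR called 0 of the 78 genes and 0 of 14578 genes (0%), and 0 of the 78 had an unadjusted p under 0.05 (4.58% of all genes had one). With DESeq2 the counts were 0 of the 78 and 11 in all. The direction was nevertheless mostly higher, with 72 of 78 genes above 0 and a median log2 fold change of 0.28, against 0.03 over all genes. Short genes leaned the same way, since the 956 other tested genes under 1000 bases had a median of 0.26, with 736 above 0. Large subunit genes had a median of 0.25 and small ones of 0.30. This lean rested on 1 library. Without dorsal knockdown 2 the median was 0.00, with 40 of 78 above 0, without dorsal knockdown 1 it was 0.43, and with the Rn45s share as a term it was 0.09. Rpl22, an RNA-binding protein of the large subunit (chr4:152325742-152334071 on the plus strand), had the smallest p. It was at 65.1, 78.2 and 76.2 CPM in dorsal control, 56.4, 154, 113 and 104 in dorsal knockdown, 157, 107, 84.2 and 86.4 in ventral control, 67.3, 161 and 68.4 in ventral knockdown. Dorsal knockdown 1 lay below all 3 dorsal controls, so the groups overlapped. Its log2 fold change was 0.55 (SE 0.36, edgeR adjusted p = 0.999). Rps28, a small subunit protein near the mRNA exit, was at 41.01, 64.4 and 52.9 CPM in dorsal control, 49.7, 133, 79.3 and 56.4 in dorsal knockdown, 82.8, 71.9, 48.7 and 47.2 in ventral control, 50.5, 129.7 and 51.9 in ventral knockdown. Dorsal knockdown 2 and the library labelled ventral knockdown 3 were the highest, dorsal knockdown 1 lay within the dorsal control range, and the fold change in dorsal hippocampus was 0.59 (SE 0.39, edgeR adjusted p = 0.999). Rpl29 gave 0.46 (SE 0.32, edgeR adjusted p = 0.999). None of the 78 had groups that did not overlap, against 7.02% of all genes.

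Between the arms in ventral hippocampus, edgeR again called 0 of the 78 genes and 0 of 14578 (0%), with 0 of the 78 and 4.07% of all at an unadjusted p under 0.05. DESeq2 called 0 of the 78 and 35 genes in all. Of the 78, 57 were above 0, with a median log2 fold change of 0.12 against -0.01 over all genes and 0.09 in the other genes under 1000 bases, 583 of 956 of them above 0. Without the library labelled ventral knockdown 3, whose Acss2 level was above the controls, the median was -0.32 and 4 of 78 were above 0, so the direction turned. Leaving out another single ventral library moved it up or towards 0. It was 0.36 without ventral knockdown 2 (62 above 0), 0.31 without ventral knockdown 4 (75 above 0) and 0.30 without ventral control 1 (76 above 0), but 0.04 without ventral control 4 and 0.02 without ventral control 3. Without all 3 libraries of smallest Rn45s share it was -0.18, with 21 above 0, and with the Rn45s share as a term it was 0.06. Rpl28 was at 122, 88.5 and 81.1 CPM in dorsal control, 102, 154, 129.7 and 108 in dorsal knockdown, 147, 72.1, 88.1 and 94.2 in ventral control, 182, 170.3 and 89.7 in ventral knockdown. Ventral knockdown 2 and the library labelled ventral knockdown 3 were above every ventral control, while ventral knockdown 4 lay among the controls. Its fold change was 0.55 (SE 0.29, edgeR adjusted p = 0.9999). Rpl29 gave 0.49 (SE 0.31, edgeR adjusted p = 0.9999), and Rplp1 0.43 (SE 0.30, edgeR adjusted p = 0.9999), the latter turning to -0.08 without the library labelled ventral knockdown 3. No gene of the 78 had groups that did not overlap, against 2.68% of all genes.

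Control libraries of the 2 regions were compared next. edgeR called 0 of the 78 and 0 of 14578 genes (0%), with 0 of the 78 and 5.58% of all at an unadjusted p under 0.05, and DESeq2 0 of the 78 and 13 in all. Dorsal minus ventral, 24 of 78 were above 0, with a median of -0.14 against -0.06 over all genes. The other genes under 1000 bases had a lower median, -0.19, with 289 of 956 above 0. Without ventral control 1 the median was 0.00, without ventral control 3 it was -0.22, and with the Rn45s share as a term it was 0.11, with 57 above 0. The smallest p belonged to Rps6 (-0.95, SE 0.49, edgeR adjusted p = 0.731), Rps26, which sits where mRNA leaves the small subunit (-0.92, SE 0.49, edgeR adjusted p = 0.731), and Rpl17 (-0.80, SE 0.48, edgeR adjusted p = 0.731), all log2 differences. Rps26 was at 73.6, 73.1 and 78.97 CPM in dorsal control, 82.01, 176, 104 and 71.9 in dorsal knockdown, 308, 109.8, 78.7 and 75.3 in ventral control, 176, 164 and 66.7 in ventral knockdown. Ventral control 1 was the highest of all, ventral control 2 lay above the dorsal controls, and the other ventral controls lay within their range. Without ventral control 1 the values were -0.23 for Rps6, -0.23 for Rps26 and -0.17 for Rpl17. Groups did not overlap in 3 of the 78 genes, Rpl13, Rpl22 and Rpl36, against 9.27% of all genes. Rpl22 was higher in ventral control, at 84.2 to 157 against 65.1 to 78.2 CPM, Rpl13 was lower there, at 77.2 to 108 against 109 to 126, and so was Rpl36, at 45.8 to 66.8 against 67.2 to 102.

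Knockdown libraries of the 2 regions gave 0 of the 78 and 0 of 14578 genes (0%) by edgeR, 0 of the 78 and 2.17% of all at an unadjusted p under 0.05, and 0 of either by DESeq2. The median was -0.01, as over all genes and in the other genes under 1000 bases, with 33 of 78 above 0, and 48 above 0 when scaled by library totals without Rn45s. It was -0.30 without dorsal knockdown 2, -0.20 without ventral knockdown 2, -0.17 without ventral knockdown 4, 0.13 without dorsal knockdown 1, 0.06 without dorsal knockdown 4, 0.45 without the library labelled ventral knockdown 3 and 0.10 with the Rn45s share as a term. Rpl41 was at 306, 135 and 139 CPM in dorsal control, 185, 246, 165 and 149 in dorsal knockdown, 502, 169, 118 and 128 in ventral control, 414, 231 and 127 in ventral knockdown. Ventral control 1 and ventral knockdown 2 were the highest, and the fold change between the knockdown regions was -0.47 (SE 0.51, edgeR adjusted p = 0.9996). Rpl28 gave -0.25 (SE 0.29, edgeR adjusted p = 0.9996) and Rps27, at 0.854 to 2.28 CPM in the knockdown libraries compared, -0.52 (SE 0.61, edgeR adjusted p = 0.9996). In 0 of the 78 genes the groups did not overlap, against 1.74% of all genes.

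Whether the arms differed by another amount in dorsal than in ventral hippocampus was tested as an interaction. edgeR called 0 of the 78 and 0 of 14578 genes (0%), with 0 of the 78 and 4.61% of all at an unadjusted p under 0.05, and DESeq2 0 of the 78 and 9 in all. The median difference of log2 fold changes, dorsal minus ventral, was 0.14 against 0.05 over all genes, with 54 of 78 above 0. The other genes under 1000 bases had a higher median, 0.18, with 618 of 956 above 0. For the ribosomal protein genes it was -0.15 without dorsal knockdown 2, -0.05 without ventral knockdown 2, -0.03 without ventral knockdown 4, -0.02 without ventral control 1, 0.30 without dorsal knockdown 1, 0.59 without the library labelled ventral knockdown 3 and -0.03 with the Rn45s share as a term. The smallest p belonged to Rpl22 (0.68, SE 0.51, edgeR adjusted p = 0.998), Rps27 (-1.05, SE 0.91, edgeR adjusted p = 0.998) and Rps27l (0.76, SE 0.68, edgeR adjusted p = 0.998). The comparisons share libraries, so their values stand side by side and were not counted as separate support.

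**Figure D5:**
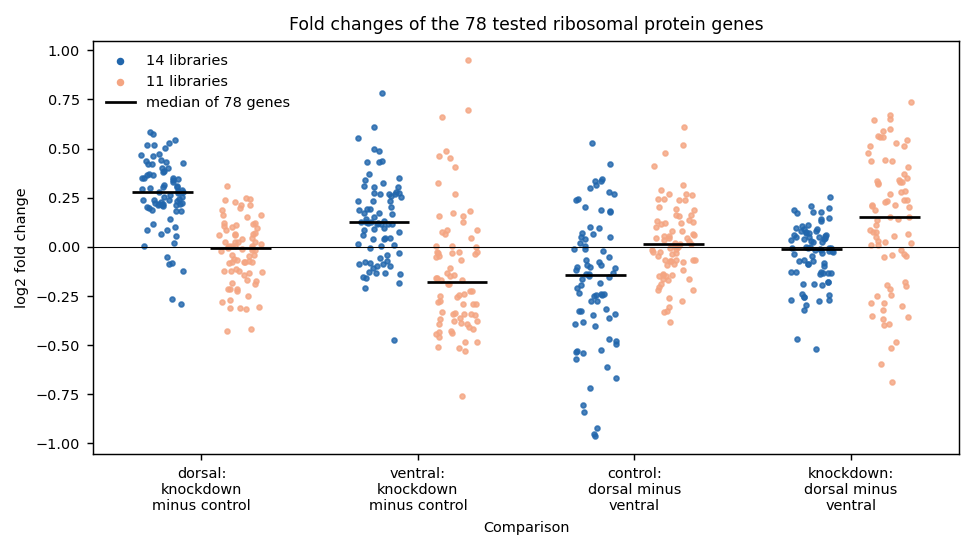
Each point is the log2 fold change of 1 of the 78 tested genes in 1 of 4 comparisons, from 14 libraries (blue) or from 11 without the 3 of smallest Rn45s share (orange), and black bars are medians. The medians move from 0.28 to -0.01 in dorsal hippocampus, from 0.12 to -0.18 in ventral hippocampus, from -0.14 to 0.01 between control regions and from -0.01 to 0.15 between knockdown regions.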

How the data were processed

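Reads per gene were measured by directional RNA-seq in 21 mouse hippocampus libraries. The authors deposited raw counts for 24498 genes and 5 summary lines. Per the submitters' processing notes, STAR 2.5.2a, HTSeq 0.6.1p1 and the mm10 genome were used; the sources used here give no HTSeq strand setting, annotation or read length. Summary lines stayed out of library sizes and tests. No-feature reads made up 18.3% to 42.3% in the 15 libraries used. The base of this percent, here and above, was gene, no-feature and ambiguous reads together, without the other summary lines. Libraries were grouped by title. Untreated libraries and ethanol libraries under 1000000 gene reads entered only the alternative with all 20 dorsal and ventral libraries.

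The main fit was edgeR 4.0.16 in R 4.3.3 (filterByExpr with a minimum count of 10, TMM, robust quasi-likelihood F-test, Benjamini-Hochberg threshold 0.05) on 14 dorsal and ventral ethanol libraries with 4 group means. The total-hippocampus library entered no test. Levels are TMM-scaled CPM per 1000000, with a prior count of 1 for log2. Standard errors come from the F statistic. A separate fit added the log2 Rn45s share as a common slope. Depth was 2819837 to 13240179 gene reads, and Clopper-Pearson intervals at 95% cover counting error only. Lengths, repeated 50-base windows and biotypes come from GENCODE M21, and start sites from RefSeq GRCm38.p6. Fits were tested on simulated counts.

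The members and gene lists were chosen with earlier results of these data known. Named genes were members fixed by role, the 3 smallest p in a comparison without calls, the 5 steepest and 5 least steep called slopes, the 5 highest and 5 lowest levels per kilobase, paralogue pairs, and up to 3 genes per list. Alternatives were RLE scaling, library totals, no filter, DESeq2 1.42.0, a replicate block, all 20 dorsal and ventral libraries, an Rn45s term, only the groups compared, and leaving out each library. Leaving out the 3 libraries of smallest Rn45s share, and the no-feature share in place of Rn45s, were chosen after seeing the data.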

Additional observations from a re-analysis of the deposited data

Results flagged for a closer look

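In 6 of the 48 gene and group combinations of 4 libraries examined, 1 library stood apart from the other 3 by Dixon's criterion; chance gives about 1 in 20. Many of the genes were named for a steep slope or a small p, and all share the same libraries, so the count cannot be read against that share. In ventral control, replicate 1 stood above the others for Rps6 (287 CPM), Rps26 (308 CPM), Rpl41 (502 CPM) and Rpl38 (303 CPM). In dorsal knockdown, replicate 2 stood above the others for Rpl17 (406 CPM) and Rps15 (507 CPM). Both libraries are among the 3 with the smallest Rn45s share.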

How the results depend on the processing

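No setting called a ribosomal protein gene in the 4 pairwise comparisons or the interaction. Over all genes, DESeq2 called 11 in the dorsal arm comparison, 35 in the ventral one, 13 between control regions and 9 in the interaction, where edgeR called 0. With all 20 dorsal and ventral libraries edgeR called 1 gene in the ventral comparison and 1 in the interaction, and with the Rn45s share as a term 1 in the ventral comparison. Without the 3 libraries of smallest Rn45s share it called 7, 12 and 6 genes in the ventral, control-region and interaction comparisons. The relation to the Rn45s share then gave 2 genes, 0 ribosomal protein genes and a median of -0.033, with Rpl10a at 0.015 and Rps15 at 0.012, and Rplp1 in the ventral comparison turned to -0.17. With the no-feature share in place of Rn45s, 358 genes and 3 ribosomal protein genes were called. The cause of these changes was not tested.

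Leaving out single libraries gave 0 to 8 genes in the ventral comparison, 0 to 6 between control regions and 0 to 2 in the interaction. The median ranged from 0.0031 to 0.43 in the dorsal comparison, -0.32 to 0.36 in the ventral one, -0.22 to 0.0023 between control regions, -0.30 to 0.45 between knockdown regions and from -0.15 to 0.59 in the interaction. Rplp1 ranged from -0.082 to 0.66 in the ventral comparison, and Rpl41 from -0.80 to 0.055 between knockdown regions. For the Rn45s share, 1958 to 4597 genes and 29 to 56 ribosomal protein genes were called. With library totals the median of all genes shifted to -0.12 between control regions and 0.13 in the interaction.

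With a replicate block, 2830 genes and 35 ribosomal protein genes were called for the Rn45s share, and none of the 78 in any other comparison, where the median moved most between control regions, to -0.24, and in the interaction, to 0.22. Same-numbered libraries did not deviate together as a set (median r 0.01 over 18 pairs, 6 of them over 0.1, and 3 of 14 libraries correlating best with their own number). The pairs include control with knockdown libraries. Whether same-numbered dorsal and ventral libraries of 1 arm come from the same animal therefore cannot be told from this. With all gene reads as the denominator the dorsal control share was 0.891% and the rank correlation with the Rn45s share over 12 libraries -0.65, and with mean log2 levels it was -0.070. All gene reads include Rn45s, so a larger Rn45s share lowers the ribosomal protein share by arithmetic. The -0.65 is therefore partly built in. Counting error was small beside the spread between libraries for the summed share, while Rps27 rests on 166 reads, which are also uncertain because of copies.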
